A study of Mus musculus with 12 samples.

Results

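Distal peaks shared by all 3 sorts are stretches of open chromatin, away from annotated gene starts, that were found in microglia, in neuronal nuclei and in nuclei of the oligodendrocyte lineage of the mouse forebrain. A peak was taken when the authors' annotation placed it in an intron or between genes, more than 1000 bp from the nearest transcription start site (TSS), in each of the 3 deposited tables, and when the peaks of the 3 tables overlapped one to one by at least 50% of each other's length. This gave 5398 members, out of 62674, 74886 and 55891 distal peaks in the tables of microglia, NeuN+ nuclei and Olig2+ nuclei. All peaks numbered 91770, 107627 and 82577, and 16740 were shared by the 3 tables whatever their annotation. No genotype comparison entered the choice.

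The assay was ATAC-seq: a transposase cuts open DNA and leaves sequencing adapters there. It was run on forebrains of C57BL/6 mice aged 4 months. Wild-type (WT) mice were compared with SgshKO mice, which lack Sgsh, the lysosomal sulfamidase that removes sulfate groups from heparan sulfate and whose loss causes Sanfilippo syndrome type A. Each genotype gave live microglia (low CD45, positive for CD11b and CX3CR1), NeuN+ nuclei negative for PU.1 and OLIG2, and Olig2+ nuclei negative for PU.1 and NeuN, with 2 libraries per group and 12 in all. Nuclei, but not microglia, were lightly fixed with formaldehyde. The labels state neither the kind of Sgsh allele nor whether 2 libraries of a group came from different animals, so p-values measure the spread between these libraries, which may be technical.

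Distal open chromatin includes enhancers, which bind transcription factors and act on promoters at a distance, as well as sites bound by the insulator protein CTCF and starts of unannotated transcripts. Enhancers tend to be open in one cell type, whereas CTCF sites and CpG islands tend to be open in many. CpG islands are stretches rich in the CG dinucleotide, mostly unmethylated, and many of them are promoters. Each member is named here by the gene with the nearest TSS, which need not be the gene it acts on.

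Although far from the start used in the authors' annotation, 187 members overlapped a start window of RefSeq (250 bases before to 50 after a gene's start, GRCm38.p6). In 36 of them the window belonged to the same gene as the nearest one (another start of it), and in 151 to another gene. Of the 209 windows, 133 were of long noncoding RNA genes and 76 of protein-coding genes. The bases of 5 of these members are shown because they are among the largest genotype changes described below and lie at such starts. Each is the part of the peak inside the RefSeq window, read 5′ to 3′ on the strand of the gene whose start it is, with CG dinucleotides in capitals. The order is the start of Gm34267 under the member nearest 4930444G20Rik (chr10:22058655-22058868, minus strand), of D130051D11Rik under that nearest Wnt7b (chr15:85634508-85634595, plus strand), of Gm16174 under that nearest Bcl3 (chr7:19816335-19816567, plus strand), of Tox2 itself (chr2:163202945-163203126, plus strand) and of E230001N04Rik under that nearest Armc12 (chr17:28522565-28522655, plus strand).
4930444G20Rik: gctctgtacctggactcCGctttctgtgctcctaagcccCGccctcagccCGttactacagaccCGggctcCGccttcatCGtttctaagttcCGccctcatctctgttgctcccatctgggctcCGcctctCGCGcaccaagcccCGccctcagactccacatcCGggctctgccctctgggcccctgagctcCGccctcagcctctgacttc
Wnt7b: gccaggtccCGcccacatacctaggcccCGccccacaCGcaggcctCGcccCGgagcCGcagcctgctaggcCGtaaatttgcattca
Bcl3: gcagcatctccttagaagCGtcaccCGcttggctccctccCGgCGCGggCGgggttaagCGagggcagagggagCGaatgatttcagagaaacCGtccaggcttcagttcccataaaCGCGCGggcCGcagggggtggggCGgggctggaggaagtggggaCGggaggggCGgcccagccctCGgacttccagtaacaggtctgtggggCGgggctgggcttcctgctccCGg
Tox2: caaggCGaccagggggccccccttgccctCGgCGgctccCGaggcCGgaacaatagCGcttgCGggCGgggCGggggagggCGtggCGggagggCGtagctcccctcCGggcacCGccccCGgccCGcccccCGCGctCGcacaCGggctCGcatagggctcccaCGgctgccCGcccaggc
Armc12: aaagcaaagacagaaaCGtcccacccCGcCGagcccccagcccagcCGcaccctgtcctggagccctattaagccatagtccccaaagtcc

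The printed Tox2 stretch holds 23 CG dinucleotides in 182 bases and the Bcl3 stretch 19 in 233. The other stretches hold 13 in 214 (4930444G20Rik), 7 in 88 (Wnt7b) and 4 in 91 (Armc12). Over whole 300-base windows, the median number of CG was 14 under members against 7 over all 32851 RefSeq windows. It was 24 under members in CpG islands and 9 under the others. On either strand, the core of the CTCF motif AGGGGGC occurred in 22% of windows under members and 10.6% of all windows, and the Tox2 stretch holds it. CACGTG, the E-box bound by MITF, TFEB and TFE3, was in 5.74% against 7.15%, GAGGAAGT (PU.1) in 3.35% against 3.2%, and TGANTCA (AP-1) in 8.13% against 7.81%. The Bcl3 stretch holds GAGGAAGT. These matches describe letters in windows, not binding.

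By the authors' annotation, 577 members lay in a CpG island in all 3 tables, 2114 in an intron, 2164 between genes and 311 in a repeat, while 232 were annotated differently in the 3 tables. CpG islands made up 11.2% to 11.3% of the members in each table, against 1.65%, 1.38% and 1.2% of the other distal peaks in microglia, NeuN+ and Olig2+ nuclei. The authors' peak score was at its maximum of 1000 in 70.5%, 68.8% and 72.0% of members, against 60.9%, 44.4% and 49.1% of other distal peaks. Members also lay closer to genes, with a median distance to the TSS of 13692.5 bp in microglia against 18031 bp for the other distal peaks of that table, which in NeuN+ and Olig2+ nuclei lay at 28796.5 and 20207 bp.

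In microglia the median WT level of a member was 37.2 normalized tags (reads scaled to a library of 10000000), against 25.7 for other distal peaks. In NeuN+ nuclei it was 19.8 against 10.7, and in Olig2+ nuclei 21.8 against 13.1. A member had to be found as a peak in all 3 sorts, so these levels are given as a description, with no test. The smallest overlap of a member had a median of 74.4%, and 677 members lay between 50% and 60%. The 346 members 1000 to 1500 bp from a TSS had median changes of -0.07, -0.46 and -0.11 on the log2 scale in the 3 sorts. For the 430 shared intron or intergenic peaks just inside the limit (500 to 1000 bp) these were -0.06, -0.57 and -0.06.

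Per kb of peak, the median WT level was 151 tags in microglia, 82.6 in NeuN+ and 89.9 in Olig2+ nuclei, and both WT libraries of microglia exceeded all WT libraries of the other sorts in 51.6% of members. These levels are not comparable as accessibility, since the tables were normalized separately and the share of tags in peaks was 48.7% to 67.4% in microglia, 21.2% to 26.7% in NeuN+ and 30.9% to 31.8% in Olig2+ nuclei. Ranked within its own table, the median member stood at percentile 57.2 in microglia, 74.8 in NeuN+ and 67.1 in Olig2+ nuclei.

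The libraries held between 10771659 and 19555924 tags, and the median member held 21 to 46 reads per library. In microglia SgshKO replicate 1 stood apart, with 67.4% of its tags in peaks against 48.7% to 55.8% in the other microglia libraries, so the counts of members, of their classes and of the highest and lowest signal groups for that sort are also given without it. Each sort had peaks at the starts of nearly all its own marker genes, with peaks at markers of other types too. Microglia markers had peaks at 13 of 14 genes in microglia (summed tags 3840 to 4800). In NeuN+ nuclei it was 1 of 14 (32.4 to 54.4) and in Olig2+ nuclei 2 of 14 (233 to 284). Neuron markers had peaks at 14 of 14 genes in NeuN+ nuclei (1010 to 1870). In microglia it was 7 of 14 (305 to 533) and in Olig2+ nuclei 8 of 14 (539 to 610). Oligodendrocyte markers had peaks at 14 of 14 genes in Olig2+ nuclei (3580 to 4240). In microglia it was 8 of 14 (592 to 767) and in NeuN+ nuclei 8 of 14 (135 to 284). In bulk libraries, fewer cells of a type and less signal per cell cannot be told apart.

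**Figure D1:**
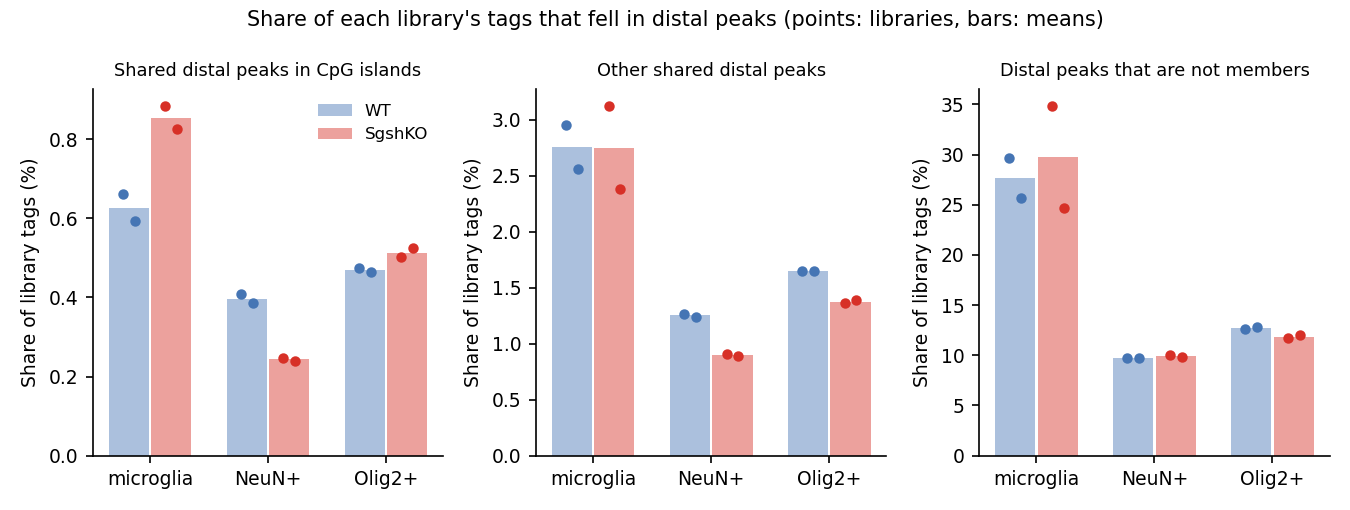
Share of each library's tags (%) that fell in members inside CpG islands, in the other members and in distal peaks that were not members, per sort and genotype; bars are means of 2 libraries and points single libraries. In NeuN+ nuclei both SgshKO libraries lie below both WT libraries in both classes of members, and in microglia the CpG island share is higher in both SgshKO libraries (0.883% and 0.827% against 0.662% and 0.593%).

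The share of each library in the members already separated the genotypes. In NeuN+ nuclei members in CpG islands took 0.408% and 0.385% of all tags in WT and 0.247% and 0.240% in SgshKO, and the other members 1.27% and 1.24% against 0.911% and 0.890%. The remaining distal peaks did not follow them, at 9.73% and 9.72% in WT and 10.0% and 9.88% in SgshKO. In Olig2+ nuclei members outside CpG islands took 1.65% and 1.65% in WT and 1.36% and 1.39% in SgshKO, whereas those inside took 0.474% and 0.465% against 0.502% and 0.525%. In microglia the CpG island members took 0.662% and 0.593% in WT and 0.883% and 0.827% in SgshKO, and the other members overlapped between genotypes (2.95% and 2.56% against 3.12% and 2.38%).

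Accessibility of the shared distal peaks was lower in SgshKO NeuN+ nuclei. There 1799 members fell and 53 rose at an adjusted p under 0.05 (limma), that is 33.3% and 0.982% of them, against 19.6% and 10.2% of all peaks of the table that fell and rose. The median change of the members was -0.49 on the log2 scale, against -0.01 for other distal peaks, of which 10282 rose and 6655 fell. This resembled the peaks within 1000 bp of a TSS, of which 407 (1.74%) rose and 10494 (44.9%) fell. The decrease was not particular to the members. Of the 11342 shared peaks that are not members, 90 (0.794%) rose and 6678 (58.9%) fell, with a median change of -0.58. The gap between members and other distal peaks was seen in each of 5 equal groups of the table's peaks by mean signal over its 4 libraries, where the members' median lay between -0.41 and -0.56 and that of other distal peaks between -0.14 and 0.015. Summed tags of neuron markers were also lower in these SgshKO libraries (1010 and 1020 against 1870 and 1750), as were those of oligodendrocyte (135 and 150 against 284 and 248) and astrocyte markers (203 and 202 against 301 and 273), of microglia markers at 1 gene (34.2 and 32.4 against 54.4 and 48.0) and of endothelial markers at 2 genes (11.2 and 13.3 against 19.3 and 19.8); their part in the result was not tested. Without either SgshKO library no NeuN+ member was called by limma (1917 and 1829 had an unadjusted p under 0.05, and edgeR called 748 and 650), and 539 and 786 were called without WT replicate 1 and 2. On the in-peak scale (the sum of tags in peaks as the total), 771 fell and 186 rose.

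Members were named by size, in every sort, among those with a mean signal at or above the median of all members and with genotypes that did not overlap. Calls lost when a library was left out are those of limma, unless edgeR is named. In NeuN+ nuclei the largest decrease by this rule was at the member 26288 bp from the TSS of Rpp21, a subunit of ribonuclease P (chr17:36231458-36231658, CpG island), which had 591 and 570.4 tags in WT and 69.1 and 60.3 in SgshKO (log2 change -3.15 ± 0.09, SE, adjusted p = 2.56e-13). The member in an intron of Il1rapl1, a synaptic adhesion protein (chrX:87238282-87238484), had 378 and 304 tags against 44.7 and 34.3 (-3.08 ± 0.14, adjusted p = 9.16e-11). In both, every SgshKO library lay far below every WT library. A member nearest the microRNA gene Mir6367 (chr16:91534571-91534778) fell in the same way, from 228 and 180.2 to 25.8 and 27.9 tags (-2.87 ± 0.15, adjusted p = 8.56e-10). The other decreases named by size, nearest Timm8a1 and Gm28590, lay in ribosomal RNA repeats and are described with those. Increases were fewer and smaller. The largest lay at -1368 bp from Plekhh2 (chr17:84510369-84510686), with 19.3 and 18.1 tags in WT and 61.4 and 68.6 in SgshKO (1.75 ± 0.19, adjusted p = 5.58e-06). It was followed by members nearest Thap1, a zinc finger transcription factor (14.7 and 9.60 to 27.2 and 32.4 tags, log2 change 1.25), Myo1d, an unconventional myosin (1.19), Lbh (0.99) and 2010308F09Rik (0.96). All 5 had SgshKO libraries above WT libraries, but Lbh was not called without WT replicate 1 (adjusted p = 0.0854) nor Myo1d without WT replicate 2 (0.0701).

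**Figure D2:**
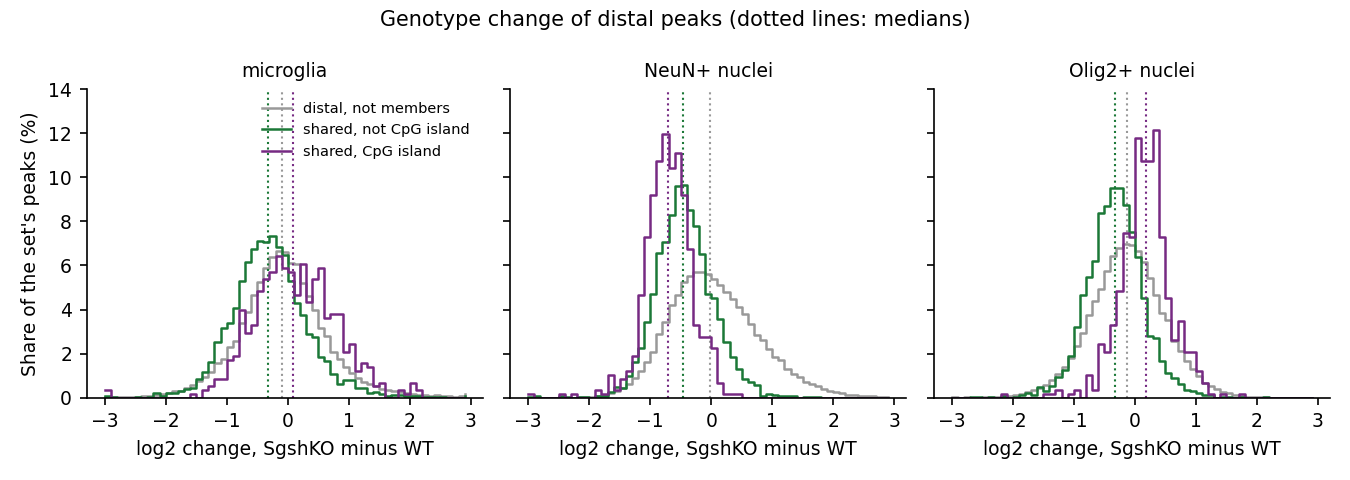
Distribution of log2 changes (SgshKO minus WT, log2 of tags + 1) of members inside CpG islands, of the other members and of distal peaks that are not members in each sort, as the share of peaks (%) per bin, with values beyond 3 placed in the end bins and medians as dotted lines. Members outside CpG islands have a lower median than distal peaks that are not members in each sort, whereas members inside them lie lowest in NeuN+ nuclei (median -0.70) and highest in Olig2+ nuclei (0.18) and microglia (0.08).

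Olig2+ nuclei showed the same direction outside CpG islands. In all, 959 members (17.8%) fell and 232 (4.30%) rose, against 11.7% and 8.17% of all peaks of the table. The median change was -0.28, against -0.12 for other distal peaks. The largest decrease was at -1647 bp from Hif3a, a hypoxia-inducible factor subunit (chr7:17058142-17058511). It had 529 and 557 tags in WT and 93.5 and 89.1 in SgshKO (log2 change -2.56 ± 0.09, SE, adjusted p = 1.62e-19). The member at -71586 bp from Ptpn1, a tyrosine phosphatase gene (chr2:167860627-167860855), had 258 and 251 tags in WT and 48.6 and 49.2 in SgshKO (-2.36 ± 0.12, adjusted p = 4.11e-15). That at -8184 bp from Armc12, whose bases are shown above, went from 88.2 and 85.9 to 16.6 and 12.0 tags (-2.54 ± 0.20, adjusted p = 1.89e-10). WT and SgshKO libraries of these 3 did not overlap. Without WT replicate 1 or 2, 416 and 384 members were called in this sort. Scaled to the other distal peaks, 344 rose and 673 fell.

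Among the increases in Olig2+ nuclei, the member in an intron 6316 bp from Bcl3, which encodes a nuclear IκB family protein (chr7:19816312-19816567), had 23.3 and 20.4 tags in WT and 55.3 and 53.8 in SgshKO (log2 change 1.28 ± 0.20, SE, adjusted p = 2.5e-05). The member nearest the microRNA gene Mir6951 (chr15:38473732-38473945) had 66.9 and 58.3 tags against 132 and 142 (1.12 ± 0.13, adjusted p = 3.53e-07). Both were higher in each SgshKO library. Susd2 (9.85 and 13.3 to 25.2 and 32.6 tags, 1.25), Zeb1, a transcription factor (1.19), and Tox2, an HMG-box protein (17.1 and 10.2 to 32.6 and 28.6 tags, 1.14), followed. The calls at Zeb1 and Tox2 were lost without WT replicate 2 (adjusted p = 0.120 and 0.0852). Tags of oligodendrocyte markers were lower in the SgshKO libraries of this sort (3610 and 3580 against 4240 and 4140) and those of microglia markers, found for 2 of 14 genes, higher (271 and 284 against 240 and 233). Those of neuron (610 and 587 against 539 and 570), astrocyte (86.1 and 70.5 against 69.5 and 63.9) and endothelial markers, found for 1 gene (8.61 and 10.6 against 3.63 and 2.56), were higher too; their part in these changes was not tested.

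In microglia few members were called and the directions were balanced. On simulated data the fit recovered 11% of 2-fold changes in microglia, against 55% in NeuN+ and 70% in Olig2+ nuclei. For 4-fold changes it recovered 75%, 95% and 98%. The simulation changed only a small set of shared peaks above a minimum of reads. In the data 7.37%, 29.8% and 19.8% of all peaks were called in microglia, NeuN+ and Olig2+ nuclei. These rates are therefore not the power of the fits to the data. Recovery differed between sorts in the same simulation, so the numbers of calls were not compared as numbers of changes. In microglia 189 members (3.50%) rose and 166 (3.08%) fell, against 5.05% and 2.33% of all peaks of the table. The median change was -0.28, against -0.09 for other distal peaks. The count rested on single libraries. Without WT replicate 1 or 2 it was 47 and 29, nearly all higher (43 and 26). It was 1348 (237 higher, 1111 lower) without SgshKO replicate 1, the library with the larger share of tags in peaks, and 793 (430 higher, 363 lower) without SgshKO replicate 2. On the in-peak scale 205 members rose and 901 fell. The split also turned after quantile normalization (219 higher, 412 lower), cyclic loess (215 and 329) and scaling to other distal peaks (227 and 466).

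By the rule on size and signal given for NeuN+ nuclei, the 5 largest increases in microglia held their call without each library. The member in a CTGGGG repeat 12854 bp from Acvrl1, a receptor kinase of the TGF-β family (chr15:101141264-101141489), had 14.7 and 20.3 tags in WT and 165 and 155 in SgshKO (log2 change 3.14 ± 0.35, SE, adjusted p = 1.39e-07). That nearest A330074K22Rik (chr8:120276454-120276733) rose from 19.9 and 22.9 to 129 and 103 tags (2.38 ± 0.35, adjusted p = 1.96e-05). The other members of this group lay in CpG islands. That at -52861 bp from Wnt7b, a secreted signalling ligand (chr15:85634508-85634857), was among the strongest microglia members, with 381 and 311 tags in WT and 1224 and 1785 in SgshKO (2.10 ± 0.24, adjusted p = 3.67e-07). It covers the start of the noncoding gene D130051D11Rik shown above. The members nearest 9330102E08Rik (chr6:128200679-128200899) and 4930444G20Rik (chr10:22058512-22058868) went from 99.4 and 88.9 to 359 and 517 tags (2.18 ± 0.28) and from 56.2 and 45.8 to 205 and 258 (2.16 ± 0.30). No WT library reached the lower SgshKO library in any of the 5.

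By the same rule, the largest decreases in microglia were smaller in size. The member in an intron of Ptpa, a phosphatase activator gene (chr2:30435900-30436139), had 74.3 and 61.0 tags in WT and 14.7 and 19.5 in SgshKO (log2 change -1.93 ± 0.38, SE, adjusted p = 0.00114). Members nearest Dtnbp1, a subunit of a complex that sorts cargo to lysosome-related organelles (81.2 and 72.9 to 20.8 and 27.9 tags, -1.64), Git2 (-1.63), the axon guidance gene Slit1 (-1.62) and Gm14005 (227 and 158 to 60.6 and 63.1 tags, -1.60) also fell. SgshKO libraries lay below WT libraries in all 5. By limma the calls of all 5 were lost without either WT library, while edgeR without the same library called all 5, with log2 changes from -1.96 to -1.40.

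**Figure D3:**
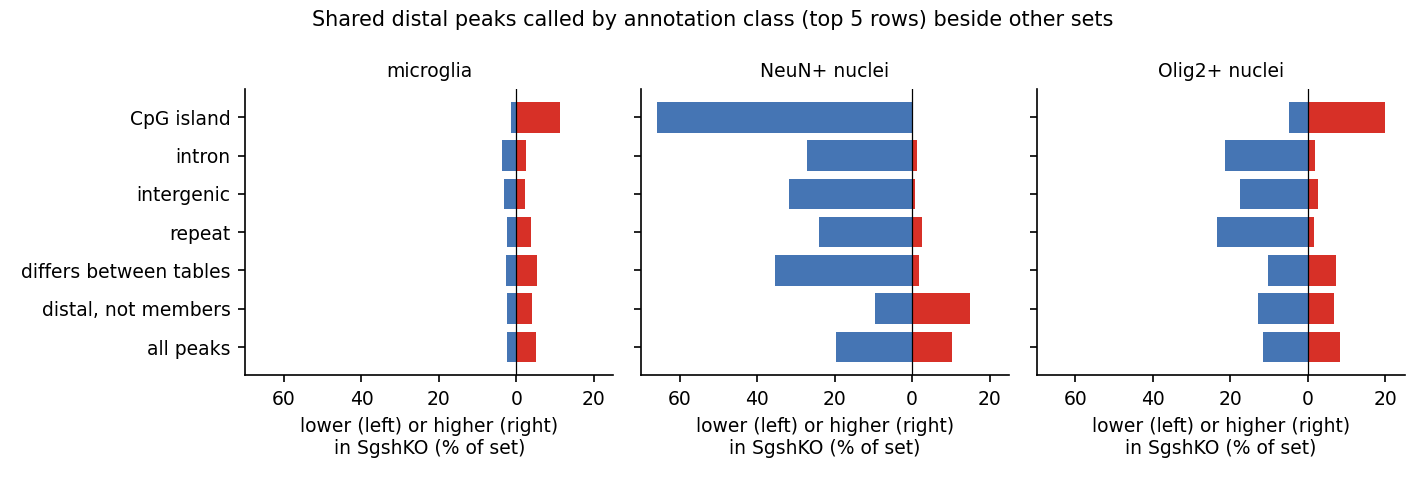
Share of members (%) called higher (right) or lower (left) in SgshKO by limma, for each annotation class and sort, with distal peaks that are not members and all peaks of the table below. CpG island members fall in NeuN+ nuclei (380 of 577) and are mostly called higher in Olig2+ nuclei (114 higher, 28 lower) and microglia (65 higher, 8 lower).

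The 577 members in CpG islands changed in different directions in the 3 sorts. In NeuN+ nuclei 380 of them (65.9%) fell and 0 rose, with a median log2 change of -0.70. In Olig2+ nuclei 114 rose and 28 fell (median 0.18), and in microglia 65 rose and 8 fell (median 0.08). By limma these counts moved when 1 library was left out. In NeuN+ nuclei 0 were called without either SgshKO library (375 and 340 had an unadjusted p under 0.05, the median was -0.72 and -0.68, and edgeR called 198 and 179 lower and 2 and 1 higher) and 175 and 250 fell without WT replicate 1 and 2. In Olig2+ nuclei 57 rose and 12 fell without WT replicate 1, and 54 and 13 without WT replicate 2. In microglia 18 rose and 2 fell without WT replicate 1, 14 and 2 without WT replicate 2, 99 and 50 without SgshKO replicate 1, and 104 and 26 without SgshKO replicate 2. The excess of lower calls in NeuN+ nuclei and of higher calls in Olig2+ nuclei held under each scaling tried. In microglia it narrowed to 69 higher and 60 lower with the in-peak scale, 58 and 43 after quantile normalization and 53 and 38 after cyclic loess, and the median change was then below 0 (-0.12, -0.053 and -0.023). Other distal CpG island peaks, which are not members, had 2 higher and 445 lower calls in NeuN+ nuclei and 115 higher and 23 lower in Olig2+ nuclei. In microglia they had 27 higher and 24 lower. Leaving out members that overlap a RefSeq start left 0 higher and 335 lower in NeuN+ nuclei, 101 and 26 in Olig2+ nuclei and 54 and 8 in microglia.

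Members outside CpG islands that changed were mostly lower in both nuclei sorts (1419 lower and 53 higher in NeuN+, 931 and 118 in Olig2+ nuclei). In microglia 158 were lower and 124 higher, a balance that depended on the library and the tool. It was 1061 lower and 138 higher without SgshKO replicate 1 and 337 and 326 without SgshKO replicate 2, but 2 lower and 25 higher without WT replicate 1, 1 and 12 without WT replicate 2, and 52 lower and 135 higher by DESeq2. Of the 2114 intron members, 572 fell and 25 rose in NeuN+ nuclei, 453 and 40 in Olig2+ nuclei and 77 and 50 in microglia. Of the 2164 intergenic ones, 690 fell and 16 rose, 381 and 56, and 67 and 50. In microglia the repeat members (12 higher, 8 lower) and those annotated differently in the 3 tables (12 and 6) went the other way. Without SgshKO replicate 1, 488 intron members fell and 59 rose in microglia, and 489 and 54 intergenic ones. Distance to the TSS went with the balance in microglia, where 32 rose and 7 fell at 1 to 2 kb, and 14 rose and 37 fell beyond 50 kb. Without SgshKO replicate 1 these were 42 and 72, and 21 and 193, and without SgshKO replicate 2 they were 56 and 24, and 44 and 61. By DESeq2, 35 members of microglia rose and 2 fell at 1 to 2 kb, and 15 rose and 12 fell beyond 50 kb. By limma the excess of lower calls beyond 50 kb was lost without either WT library. The median changes at 1 to 2 kb and beyond 50 kb were then -0.022 and -0.237 (without WT replicate 1), and -0.232 and -0.494 (without WT replicate 2). In NeuN+ nuclei the share that fell was 36% at 1 to 2 kb and 34% beyond 50 kb.

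**Figure D4:**
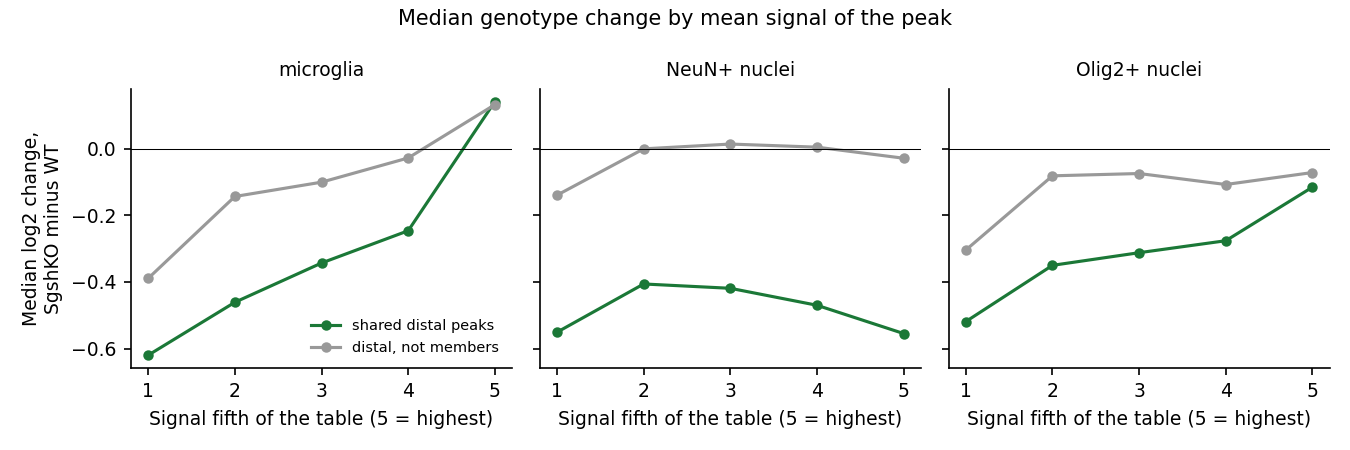
Median log2 change (SgshKO minus WT) of members and other distal peaks in 5 equal groups of the table's peaks by mean signal over its 4 libraries, from lowest to highest, in each sort. The members lie below the other distal peaks in every group in NeuN+ nuclei, while in the highest group in microglia the medians meet (0.14 and 0.13).

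Across 5 equal groups of the table's peaks by mean signal over its 4 libraries, the members of microglia went from a median change of -0.62 in the lowest to 0.14 in the highest, and other distal peaks from -0.39 to 0.13. In the highest signal group 129 members of microglia rose and 15 fell, and in the lowest 7 and 38. Without SgshKO replicate 1 these were 155 and 102, and 8 and 231. They were 257 and 26, and 31 and 103, when SgshKO replicate 2 was left out. In the highest group 32 rose and 0 fell without WT replicate 1, and 20 and 0 without WT replicate 2 (164 and 126 had an unadjusted p under 0.05). By limma the lower calls of the lowest group in microglia were lost without either WT library. Its median change was then -0.524 (without WT replicate 1) and -0.693 (without WT replicate 2). By DESeq2, 165 members of microglia rose and 12 fell in the highest group, and 1 rose and 3 fell in the lowest. In Olig2+ nuclei the members' medians went from -0.52 to -0.12 and those of other distal peaks from -0.30 to -0.07.

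Of the members, 2666 (49.4%) were called in no sort, against 36.3% of all shared peaks. Called lower in NeuN+ nuclei and in no other sort were 1252 members (23.2%), against 32.4% of all shared peaks. For Olig2+ nuclei and no other sort these were 596 (11%) against 5.78%. Called lower in both nuclei sorts but not in microglia were 286 members (5.3%), against 4.3%. Of the 232 members that rose in Olig2+ nuclei, 103 (44.4%) fell in NeuN+ nuclei, which is 5.73% of the latter. Of the 189 that rose in microglia, 106 (56.1%) fell in NeuN+ nuclei. In Olig2+ nuclei 32 (16.9%) of the 189 rose and 32 (16.9%) fell. Over all members, 33.3% fell in NeuN+ nuclei, and 4.30% rose and 17.8% fell in Olig2+ nuclei. Across members the Pearson correlation of log2 changes was 0.05 between microglia and NeuN+ nuclei, 0.21 between microglia and Olig2+ nuclei and 0.04 between the nuclei sorts. Members are not independent, and the points of a sort share its 4 libraries.

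Whether the genotype change itself differed between sorts was tested in 1 limma model over the 12 libraries and all shared peaks. Changes are compared with their sign. A greater change is thus one that is more positive or less negative, not one that is larger in size. Between microglia and NeuN+ nuclei it differed for 1062 members (19.7%), against 42.5% of all shared peaks, and was greater in microglia in 885 and in NeuN+ nuclei in 177. Between microglia and Olig2+ nuclei it differed for 595 (11.0%), against 21.6%, and was greater in microglia in 381. Between NeuN+ and Olig2+ nuclei it differed for 741 (13.7%), against 31.7%, and was greater in Olig2+ nuclei in 653. With the in-peak scale the first 2 balances turned (379 greater and 600 smaller in microglia than in NeuN+ nuclei, 260 and 443 against Olig2+ nuclei), and that against Olig2+ nuclei also turned without microglia SgshKO replicate 1 (328 and 529). Against Olig2+ nuclei the count was 913 without microglia SgshKO replicate 2, 393 without microglia WT replicate 2, 383 without Olig2+ SgshKO replicate 1, and 365 and 376 without Olig2+ WT replicate 1 and 2. Between the nuclei sorts it was 415 without NeuN+ WT replicate 1, 454 without Olig2+ SgshKO replicate 2, and 489 and 455 without Olig2+ WT replicate 1 and 2. Of the members in CpG islands the change differed in 50.4% between microglia and NeuN+ nuclei (288 greater in microglia, 3 in NeuN+ nuclei) and in 54.1% between the nuclei sorts (310 greater in Olig2+ nuclei, 2 in NeuN+ nuclei), against 15.4% and 7.38% of intron members.

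**Figure D5:**
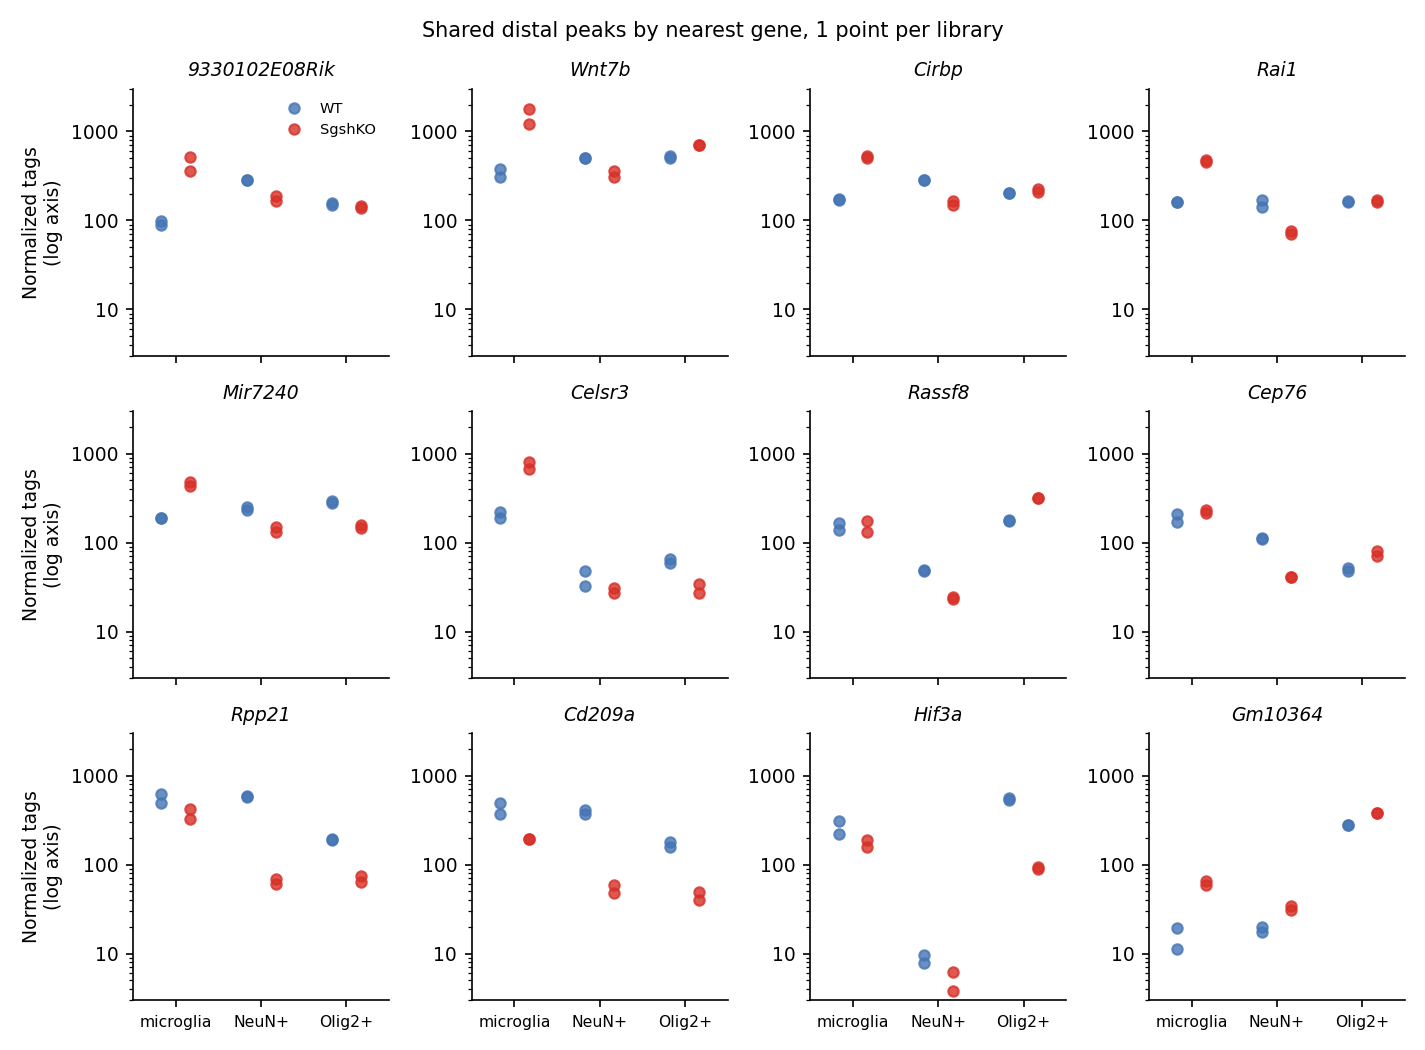
Normalized tags of 12 named members in every library (log axis, 1 point per library, WT and SgshKO per sort). At Wnt7b, Cirbp, Rai1 and Celsr3 the SgshKO points of microglia lie above the WT points, while at Rpp21 and Cd209a the SgshKO points of NeuN+ nuclei lie far below.

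The CpG island member at -7744 bp from Cirbp, a cold-inducible RNA-binding protein (chr10:80159954-80160236 in microglia), had 176 and 168 tags in WT and 524 and 508 in SgshKO microglia. In NeuN+ nuclei it had 283 and 284 against 148 and 164, and in Olig2+ nuclei 205 and 206 against 210 and 223. It thus rose in microglia (log2 change 1.58), fell in NeuN+ nuclei (-0.86; -0.22 and not called after cyclic loess, adjusted p = 0.0674) and was not called in Olig2+ nuclei, and its change differed by 2.44 ± 0.18 (SE, adjusted p = 3.09e-10) between the first 2. The member in the gene region of Rai1, a transcriptional regulator (chr11:60115249-60115449), had 162 and 162 tags against 458 and 480 in microglia and 172 and 142 against 70.5 and 75.5 in NeuN+ nuclei (difference 2.62 ± 0.19, adjusted p = 4.86e-10). The member nearest 9330102E08Rik, described above for microglia, had 286 and 289 tags against 187 and 164 in NeuN+ nuclei (difference 2.89 ± 0.22, adjusted p = 5.66e-10). In Olig2+ nuclei it had 148 and 158 against 138 and 144 and was not called, and its change differed from that in microglia by 2.30 ± 0.22 (adjusted p = 1.28e-07).

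Between microglia and Olig2+ nuclei, the member 6531 bp from Celsr3, a cadherin of axon guidance (chr9:108832470-108832683), had 220 and 189 tags in WT and 802 and 673 in SgshKO microglia. In Olig2+ nuclei it had 65.3 and 58.8 against 27.1 and 33.9, so that it rose in the former and fell in the latter (difference 2.85 ± 0.27, SE, adjusted p = 1.37e-07). The member nearest the microRNA gene Mir7240 (chr8:70796987-70797198) rose in microglia from 188 and 189 to 479 and 432 tags and fell in Olig2+ nuclei from 296 and 282 to 157 and 145 (difference 2.20 ± 0.18, adjusted p = 2.5e-08). In microglia it was not called when WT replicate 1 or 2 was left out (adjusted p = 0.115 and 0.188). Between the nuclei sorts, the member in a CCCCG repeat at -61639 bp from Rassf8 (chr6:145746627-145746862) fell in NeuN+ nuclei from 48.1 and 48.6 to 23.03 and 24.8 tags and rose in Olig2+ nuclei from 176 and 178 to 315 and 318. The difference was -1.82 ± 0.23 (adjusted p = 4.73e-05). The member nearest Cep76, a centriole protein, fell from 113 and 108 to 41.2 and 40.6 tags in NeuN+ nuclei and rose from 52.4 and 47.6 to 70.1 and 79.8 in Olig2+ nuclei (difference -1.99 ± 0.23, adjusted p = 2.62e-05), though in Olig2+ nuclei it was not called when WT replicate 2 (adjusted p = 0.121) or SgshKO replicate 2 (0.0631) was left out, nor by DESeq2 (0.0619). At Rpp21 both nuclei sorts fell, NeuN+ nuclei by more (difference -1.70 ± 0.21, adjusted p = 4.29e-05). In Olig2+ nuclei that member went from 189 and 192 to 74.4 and 64.5 tags.

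Members called in the same direction in every sort were rare. There were 16 lower in all 3, against 0.102% of all shared peaks called lower in all 3 (0.296% of members), and 1 higher in all 3, against 0.00597%. The latter, 16932 bp from Gm10364 (chr14:55055248-55055541), had 11.2 and 19.5 tags in WT and 65.8 and 58.5 in SgshKO microglia, 17.6 and 19.8 against 34.2 and 31.1 in NeuN+ nuclei, and 276 and 276 against 378 and 379 in Olig2+ nuclei. Each SgshKO library was above each WT library in each sort (log2 changes 1.99, 0.78 and 0.45). In microglia it was no longer called when WT replicate 1 was left out (adjusted p = 0.176), nor in NeuN+ nuclei when WT replicate 1 or 2 was (0.113 and 0.0553).

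Of the members lower in all 3, that at -25875 bp from Atoh8, a bHLH transcription factor (chr6:72261323-72261582), had 186 and 166 tags in WT and 93.5 and 73.3 in SgshKO microglia, 42.5 and 41.8 against 16.8 and 14.6 in NeuN+ nuclei, and 53.4 and 36.3 against 27.7 and 24.6 in Olig2+ nuclei. Those nearest A930015D03Rik (log2 changes -1.44, -0.98 and -0.86), the hemojuvelin gene Hfe2 (-1.60, -1.60 and -0.997) and Setd3, a histidine methyltransferase (-1.51, -0.93 and -0.82), fell in the same way. In microglia limma called none of these 4 when either WT library was left out. edgeR called A930015D03Rik without either, Atoh8 and Hfe2 without WT replicate 1 (adjusted p = 0.0497 and 0.0168) and Setd3 without WT replicate 2 (0.0369). In Olig2+ nuclei Atoh8 and Hfe2 were not called without WT replicate 1 (adjusted p = 0.307 and 0.144), nor A930015D03Rik and Setd3 without WT replicate 2 (0.102 and 0.127). The first of the 16, nearest Cd209a, lies in a ribosomal RNA repeat.

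Among the 311 repeat members, 7 lay in ribosomal RNA repeats in all tables. All 7 fell in NeuN+ nuclei (median log2 change -2.48), 6 in Olig2+ nuclei (-1.79) and 1 in microglia. The member at -5483 bp from Cd209a (chr8:3754367-3754568), annotated as small-subunit rRNA, had 489 and 367 tags against 196 and 192 in microglia, 413 and 370 against 58.6 and 48.2 in NeuN+ nuclei, and 157 and 181 against 49.2 and 40.5 in Olig2+ nuclei. Those nearest Timm8a1 (chr10:11492056-11492259; 263 and 226 to 25.8 and 27.9 tags) and Gm28590 (chr1:122357118-122357321; 304 and 293 to 37.0 and 41.9) fell in NeuN+ nuclei by 3.14 and 2.89 on the log2 scale. Those nearest 4930433N12Rik (160 and 190.2 to 40.6 and 35.2) and Gm19277 (48.8 and 56.8 to 11.7 and 11.3) were among the largest decreases in Olig2+ nuclei. Copies of rRNA sequence are near-identical, so the origin of reads at these sites is uncertain. Without the repeat members, 45 members rose and 1724 fell in NeuN+ nuclei.

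Among the members with the highest WT levels across the 3 sorts, that nearest Prr12 was called in opposite directions. The member at -1400 bp from Prr12 (chr7:45054162-45054401) had 487 and 429 tags in WT and 1032 and 932 in SgshKO microglia, 224 and 202 against 112 and 105 in NeuN+ nuclei, and 280.1 and 276 against 191 and 221 in Olig2+ nuclei. It rose in microglia (log2 change 1.10; lost by limma but not by edgeR without either WT library, with 1.15 and 1.17 by edgeR) and fell in both nuclei sorts. The CpG island member at -1082 bp from Zcchc14 (chr8:121652914-121653117) had 383 and 358 tags against 154 and 175 in NeuN+ nuclei (-1.17, adjusted p = 1.82e-07) and 423 and 429 against 716 and 706 in microglia, which was not called (0.74, adjusted p = 0.0519). In NeuN+ nuclei those nearest Dnajb12, an endoplasmic reticulum co-chaperone (-0.43), Pnrc1 (-0.45) and Fbxo46 (-0.51) were called lower with the deposited scale, but their changes were above 0 and not called after cyclic loess (0.16, 0.18 and 0.087) and quantile normalization (0.14, 0.13 and 0.061).

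The members lay nearest 3888 genes, of which 2931 had 1 member, 839 had 2 or 3 and 118 had 4 or more. Among the genes with the most members were Cxxc5, which encodes a protein that binds unmethylated CpG (17 members), Zmynd8, a reader of modified histones (11), Pisd-ps3 on an unplaced contig (10), and Bcor, a Polycomb-associated corepressor gene, and Kdm6b, a histone H3K27 demethylase gene (9 each). At Cxxc5, 5 members fell in NeuN+ nuclei and 3 rose in Olig2+ nuclei, with log2 changes from -0.88 to 0.29 and from -0.38 to 1.04. At Bcor, where 8 of the 9 were CpG islands, 4 rose in Olig2+ nuclei and 1 fell in NeuN+ nuclei. At Zmynd8, 3 fell in each nuclei sort. At Kdm6b, 2 rose in microglia and 3 fell in NeuN+ nuclei.

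Lysosomal genes, many of them controlled by the MiT/TFE factors, were read against the shares of all members that fell, 33.3% in NeuN+, 17.8% in Olig2+ nuclei and 3.08% in microglia. The lysosome list (54 genes) had 15 members at 11 genes, of which 1 (6.67%) rose in microglia, 1 (6.67%) fell in NeuN+ nuclei and 3 (20%) fell in Olig2+ nuclei. Of 2 members nearest Gaa (acid α-glucosidase), 1 fell in NeuN+ nuclei (-0.72, not called by edgeR, DESeq2 or any other scaling except that to other distal peaks). In Olig2+ nuclei those nearest Lamp2, a lysosomal membrane protein (-0.89), and Grn fell, with 1 of 3 nearest Psap. By limma these Olig2+ calls were all lost without WT replicate 2. The median log2 change of the 15 members there was -0.434, and -0.373 without WT replicate 2. Of 5 members nearest MiT/TFE and nutrient-sensing genes, 3 fell in NeuN+ nuclei, at Tfeb (33.4 and 42.4 to 16.8 and 15.9 tags, -1.16), Rragc and Slc38a9, and 0 were called in microglia or Olig2+ nuclei.

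The heparan sulfate list had 15 members at 7 genes. A CpG island member nearest Extl3, a glycosyltransferase of heparan sulfate synthesis (chr14:65149954-65150182), had 65.7 and 44.9 tags in WT and 96.1 and 205 in SgshKO microglia, 152 and 133 against 101 and 88.2 in NeuN+ nuclei, and 263 and 294 against 361 and 373 in Olig2+ nuclei. It rose in microglia (log2 change 1.35, not called without WT replicate 1, WT replicate 2 or SgshKO replicate 2, adjusted p = 0.0831, 0.599 and 0.0586) and in Olig2+ nuclei (0.40) and fell in NeuN+ nuclei (-0.58, but -0.018 and not called after quantile normalization). The sulfatase gene Sulf2 had 4 members, of which 2 fell in microglia, where 3.08% of all members fell. By limma both of these calls were lost without either WT library. Of 8 members nearest genes of the disease-associated microglia list, 1 (12.5%) fell in microglia, nearest the lipid receptor gene Trem2 (52.7 and 42.4 to 21.6 and 14.9 tags, -1.35, adjusted p = 0.0309). By limma this call was lost when either WT library was left out, while edgeR kept it without WT replicate 2. In Olig2+ nuclei 3 (37.5%) of the 8 fell, 1 of them nearest Trem2, and 0 rose, where 17.8% of all members fell. Of 7 nearest homeostatic genes, 1 fell in microglia, nearest Entpd1 (-1.44), and was not called when either WT library or SgshKO replicate 2 was left out (edgeR lost it without WT replicate 1 only, 0.227). Without SgshKO replicate 1, 4 members of the disease-associated and 2 of the homeostatic list fell in microglia.

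The lists of glucocorticoid-responsive and immediate-early genes were added by earlier work after the tables had been read. Of the 21 glucocorticoid-responsive members, 12 (57.1%) fell in Olig2+ nuclei, against 17.8% of all members, 9 (42.9%) fell in NeuN+ nuclei, against 33.3%, and 0 rose in any sort. All 4 members nearest Zbtb16, a zinc finger repressor induced by glucocorticoids, fell in Olig2+ nuclei, and 1 of them fell in microglia (chr9:48723763-48723964, from 57.9 and 55.9 to 6.93 and 5.57 tags, log2 change -3 ± 0.43, SE, adjusted p = 1.59e-05). At Klf9, 3 of 4 fell in Olig2+ and 2 in NeuN+ nuclei, the latter with values from 51.0 and 45.7 to 18.9 and 13.97 tags at the CpG island member (-1.52). Of 29 immediate-early members, 14 of them CpG islands, 15 (51.7%) fell in NeuN+ nuclei and 0 rose, against 65.9% lower among all CpG island members and 29.4% among the others. In Olig2+ nuclei 3 rose and 2 (6.90%) fell, and in microglia 3 rose. Btg2, an antiproliferative gene, had 157 and 156 tags in WT and 73.3 and 78.7 in SgshKO NeuN+ nuclei (-1.03). Jund rose in microglia with replicates far apart (696 and 562 to 2079 and 840.2 tags), and was not called when SgshKO replicate 1 (adjusted p = 0.208) or WT replicate 2 (0.323) was left out, nor after cyclic loess (0.359) or quantile normalization (0.275).

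Clock genes, which drive daily rhythms, had 14 members, 5 of them CpG islands. Of all members, 3.50% rose in microglia. The median log2 change of the clock members there was 0.209, and it was 0.34 and 0.0775 without WT replicate 1 and 2. In microglia 4 rose, nearest Bhlhe40 (121 and 150 to 355 and 367 tags, log2 change 1.41), Dbp, Nr1d1 and Nr1d2. By limma all 4 calls were lost without either WT library, while edgeR kept that nearest Bhlhe40. In NeuN+ nuclei 6 (42.9%) fell and 1 rose, where 33.3% of all members and 65.9% of those in CpG islands fell. The member nearest the repressor gene Nr1d1 had 129 and 111 tags in WT and 63.5 and 60.3 in SgshKO (-0.94). In Olig2+ nuclei 5 (35.7%) fell and 3 (21.4%) rose, against 17.8% and 4.30% of all members. A member nearest Tef was among those that fell (211 and 170 to 104 and 104 tags, -0.86). The labels give no time of day.

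Among marker genes of cell types, oligodendrocyte genes had 13 members, of which 8 (61.5%) fell in Olig2+ nuclei, against 17.8% of all members. In NeuN+ nuclei 4 (30.8%) of the 13 fell, near the 33.3% of all members that fell there, and 0 rose in either sort. The member in a CAG repeat nearest Mbp, myelin basic protein, had 72.1 and 68.5 tags in WT and 25.8 and 23.3 in SgshKO Olig2+ nuclei (log2 change -1.48, adjusted p = 7.43e-07) and 45.3 and 39.0 against 18.9 and 22.2 in NeuN+ nuclei, where it was not called without WT replicate 1 (0.0595). Neuron genes had 9 members, of which 3 (33.3%) fell and 1 rose in NeuN+ nuclei, the same share that fell among all members. Slc17a7, the vesicular glutamate transporter, had 95.7 and 98.8 tags in WT and 67.7 and 68.6 in SgshKO (-0.51, but -0.020 and not called after cyclic loess). In Olig2+ nuclei 2 members nearest Snap25 rose (1 of them, from 36.8 and 28.6 to 55.9 and 50.5 tags, was not called without WT replicate 2) and 3 nearest Rbfox3 fell. Of 4 astrocyte members 3 fell in NeuN+ nuclei, where 33.3% of all members fell, among them that nearest Aldh1l1 (-1.32). An endothelial member nearest Cdh5 fell in microglia (24.2 and 19.5 to 2.60 and 3.71 tags, -2.46), a call lost by limma but not by edgeR without either WT library, and in NeuN+ nuclei (-1.06). Endothelial marker sums overlapped between genotypes in microglia. Blood and border myeloid sums, from peaks at 5 of 12 genes, were higher in SgshKO microglia (118 and 89.1 against 87.3 and 72.0), and their part in the microglia results was not tested; no peak was found at any of these 12 genes in the nuclei.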

How the data were processed

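ATAC-seq tags were measured in 12 libraries, 2 per genotype in each of 3 sorts. The submitters' processing notes name mm10, Bowtie2 and HOMER; how duplicates were handled and whether reads were shifted is not given in the sources used here. Per the file headers, the deposited signal is the tags per peak scaled to a library total of 10000000, in 1 table per sort with peaks common to its 4 libraries. The deposited Peak Score is the authors' score and was used only to describe peaks. Whole reads could be recovered for 100% of values (tolerance 0.01).

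Within each table, log2(tags + 1) was compared with limma 3.58.1 in R 4.3.3 (eBayes with trend, two-sided) over all peaks, with Benjamini-Hochberg adjustment and a threshold of 0.05. Changes on this scale understate those of low peaks. Differences between sorts came from 1 limma model of the 12 libraries over the 16740 shared peaks. No peak was filtered. As alternatives, the pseudocount was set to 0.5 or 5, the 25% of peaks with least signal, or sex chromosomes, were dropped, the scaling was changed (in-peak sum, median of ratios, quantile, cyclic loess), and recovered reads were tested with edgeR 4.0.16 and with DESeq2 1.42.0. Others were 70% overlap, over 5000 bp, a threshold of 0.01, a replicate block and leaving out each library; scaling to other distal peaks, edgeR without each library and leaving out repeats were chosen after seeing the data. The fits were tested on simulated data.

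Named members are the 5 largest called changes per direction and sort at or above the members' median signal with genotypes apart (at most 1 per gene), up to 5 called alike in all sorts, the 3 smallest p per pair of sorts, the 5 highest WT levels, the genes with most members and the smallest p per gene list. Members and the 15 lists were chosen with earlier results of these data known. Coordinates are those of the files (mm10). Start windows are from RefSeq (GRCm38.p6). No genome sequence was used, so peak sequences and GC content were not analysed here. Results at some named genes are not reported here.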

Additional observations from a re-analysis of the deposited data

Results flagged for a closer look

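In a model over all 12 libraries, the genotype change differed between sorts for 1062 members (microglia and NeuN+ nuclei), 595 (microglia and Olig2+ nuclei) and 741 (NeuN+ and Olig2+ nuclei), each tested as an interaction term by limma. The members with the smallest p were those nearest Cirbp (a difference of 2.44 on the log2 scale, microglia minus NeuN+ nuclei), Rai1 (2.62) and 9330102E08Rik (2.89). Between microglia and Olig2+ nuclei they were those nearest Celsr3 (2.85), Mir7240 (2.20) and again 9330102E08Rik (2.30). Between NeuN+ and Olig2+ nuclei they were those nearest Rpp21 (-1.70), Cep76 (-1.99) and Rassf8 (-1.82). All but Rassf8 lay in CpG islands. Sort, fixation of the nuclei and table of peaks cannot be told apart in these differences.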

How the results depend on the processing

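The medians of members minus those of other distal peaks kept their sign under 21 settings, from -0.22 to -0.16 in microglia, -0.53 to -0.39 in NeuN+ and -0.18 to -0.13 in Olig2+ nuclei. The counts of called members moved more, and the cause was not tested. In microglia 355 members were called; the count was 138 at an adjusted p under 0.01, 218 with 70% overlap, 544 after cyclic loess, 789 by edgeR (380 higher), 1106 with the in-peak scale, 677 with median of ratios, 631 after quantile normalization, 693 with scaling to other distal peaks, 29 to 1348 by limma and 219 to 1323 by edgeR without 1 library (1158 without SgshKO replicate 1). By DESeq2 it was 269 (214 higher, 55 lower). In NeuN+ nuclei 1852 were called; the count was 891 at 0.01, 166 by DESeq2 (157 lower), 980 after cyclic loess (163 higher), 1187 by edgeR, 957 with the in-peak scale, 1105 with median of ratios, 654 after quantile normalization (107 higher), 0 to 786 by limma and 542 to 748 by edgeR without 1 library (650 without SgshKO replicate 2, 699 without WT replicate 2); without repeats it was 1769. In Olig2+ nuclei 1191 were called; the count was 525 at 0.01, 786 with 70% overlap, 224 by DESeq2 (90 higher, 134 lower), 384 to 1122 by limma and 609 to 835 by edgeR without 1 library (656 without SgshKO replicate 2, 754 without WT replicate 2).

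Differences between microglia and NeuN+ nuclei numbered 614 at 0.01, 661 with 70% overlap, 641 after quantile normalization and 749 to 1458 without 1 library. Those between microglia and Olig2+ nuclei numbered 284 at 0.01, 375 with 70% overlap and 365 to 913 without 1 library. Those between the nuclei sorts numbered 353 at 0.01, 430 with 70% overlap, 429 with the in-peak scale, 401 after quantile normalization and 415 to 1042 without 1 library. In NeuN+ nuclei 3 named members reversed: Dnajb12 (0.158 after cyclic loess, 0.140 after quantile normalization), Pnrc1 (0.181, 0.129) and Fbxo46 (0.0873, 0.0607). In-peak scaling moved the median change of all peaks from -0.08 to -0.28 in microglia and from -0.23 to 0.05 in NeuN+ nuclei.

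Across peaks, the deviations of same-numbered libraries were barely correlated (0.042, 0.0036 and 0.0007 in microglia, NeuN+ and Olig2+ nuclei). This correlation cannot see a shift common to a whole library, so it does not exclude that same-numbered libraries are paired. In microglia replicate 1 had the larger share of tags in peaks in WT (55.8% against 48.7%) and in SgshKO (67.4% against 53.7%). With the replicate block 881 members were called in microglia (359 higher, 522 lower), 2060 in NeuN+ and 1309 in Olig2+ nuclei, and 1154, 668 and 829 differed between microglia and NeuN+, microglia and Olig2+, and NeuN+ and Olig2+ nuclei. Of 47, 109 and 23 calls of named members that limma lost without 1 library in microglia, NeuN+ and Olig2+ nuclei, edgeR without the same library called 37, 66 and 7. With 2 libraries per group and 21 to 46 reads per median member, the depth limits which changes of single members could be called.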
